A study of Homo sapiens with 9 samples.

Results

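The FOS and JUN genes encode the subunits of AP-1, a transcription factor that binds DNA as a pair of basic leucine zipper (bZIP) proteins. The 7 genes FOS, FOSB, FOSL1, FOSL2, JUN, JUNB and JUND were taken by name from the 60230 genes of the deposited tables, and all 7 were among the 17307 genes that passed the filter on low counts. Poly(A) RNA was sequenced from the established human lung carcinoma line NCI-H358, in a series on acquired resistance to sotorasib, a covalent inhibitor used against lung cancer. NCI-H358-R, its resistant derivative, came from selection over about 2 months at 250 nM sotorasib. It was profiled 4 days after dosing with 250 nM sotorasib (on drug) and without the drug (off drug). Parental NCI-H358 cells were drug-sensitive and untreated. All 3 states were grown in medium with serum and had 3 libraries each, labelled as biological replicates. Nothing in the labels says that these were separate cultures, so a p-value here reflects only the spread from library to library, part of which may be technical. NCI-H358-R is a single resistant derivative, no library of drug-treated parental cells was analysed here, and the time since drug removal is not stated for the off-drug cells.

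AP-1 is formed by a FOS protein paired with a JUN protein, or by JUN proteins paired with each other, since FOS proteins do not pair stably among themselves. FOS and FOSB are classical immediate early genes that growth signals switch on within minutes, while FOSL1 and FOSL2 are induced later. The MEK-ERK kinase cascade drives transcription of FOS genes and also stabilises FOS proteins by phosphorylation, and FOSL1 is known as an AP-1 subunit of invasive carcinoma cells. RNA levels do not show protein levels, phosphorylation or which pairs form.

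The coding stretch around the basic region, the part of each protein that touches DNA, shows how closely the subunits are related. It is printed for all 7 genes, 5′ to 3′, over 45 bases from the GENCODE 29 coding transcripts, with capitals at the 19 positions where all 7 genes carry the same base.
FOS: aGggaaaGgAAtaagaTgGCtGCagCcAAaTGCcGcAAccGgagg
FOSB: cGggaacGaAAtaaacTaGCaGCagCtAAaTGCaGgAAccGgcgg
FOSL1: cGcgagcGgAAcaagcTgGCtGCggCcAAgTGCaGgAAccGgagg
FOSL2: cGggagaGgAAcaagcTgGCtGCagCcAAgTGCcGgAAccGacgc
JUN: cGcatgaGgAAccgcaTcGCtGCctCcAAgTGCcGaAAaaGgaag
JUNB: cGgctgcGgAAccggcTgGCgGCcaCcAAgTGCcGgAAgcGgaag
JUND: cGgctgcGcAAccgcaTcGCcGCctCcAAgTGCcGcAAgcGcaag
Over these 45 bases, pairs of FOS genes shared 73.3 to 84.4% of bases, pairs of JUN genes 75.6 to 82.2%, and a FOS gene with a JUN gene 48.9 to 75.6%. The closest pair, FOSL1 and FOSL2, shared 38 of the 45 bases, with differences spread along the stretch. Whether the authors' counting split any reads between members was not tested.

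In resistant cells off drug, FOSL1 transcripts were far above those of every other member. FOSL1, which encodes FRA1, made up 18.4% ± 1.24 of the summed TPM (transcripts scaled for length and depth) of the 7 genes on drug, 75.6% ± 0.424 off drug and 24.2% ± 1.31 in parental cells (SD, n = 3 each). On drug, FOSL1 lay near its parental level, FOS and FOSB were below both other states on the CPM scale, and JUN and FOSL2 reached their highest levels of the 3 states. JUND was lowest off drug. JUNB differed by 0.34 or less on the log2 CPM scale between any pair of states.

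**Figure D1:**
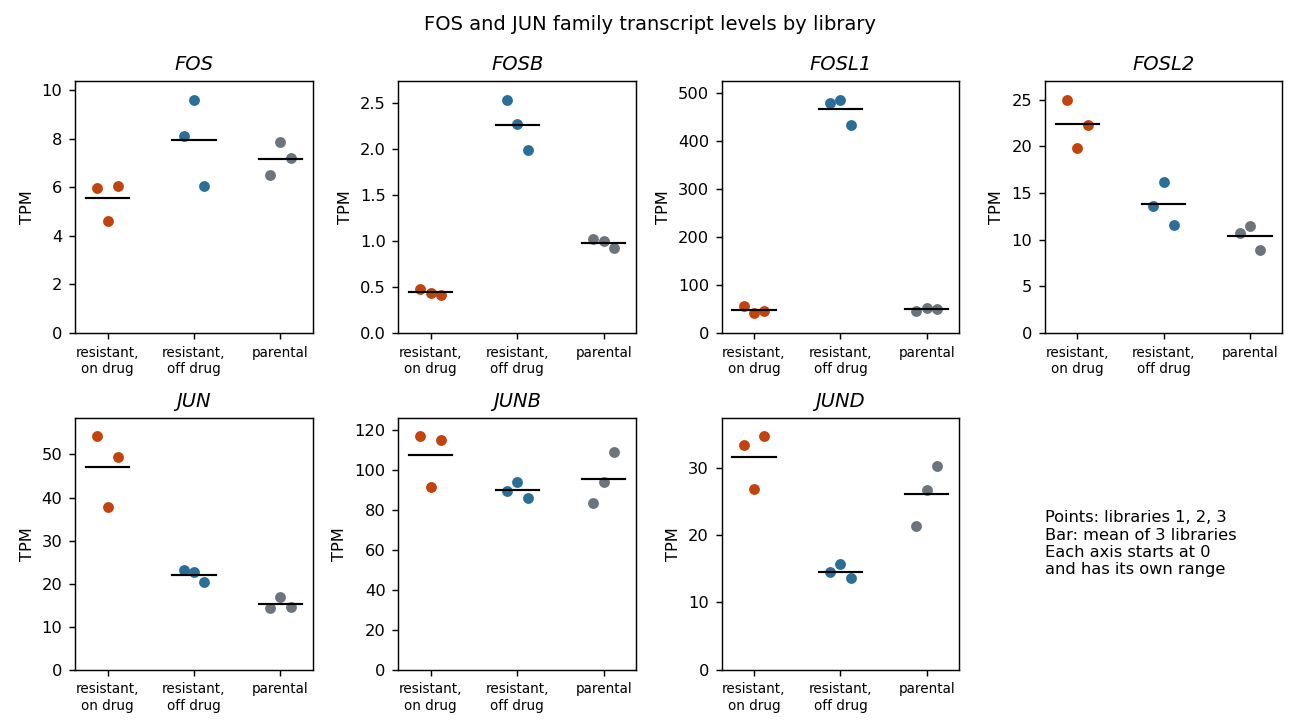
Transcript level of each FOS and JUN gene in TPM (linear axes from 0, each with its own range) in resistant cells on drug, resistant cells off drug and parental cells. Points are libraries and bars are means of 3 libraries. FOSL1 lies between 433.1 and 486.9 TPM off drug, above every library of the other states, while JUN and FOSL2 are highest on drug.

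Depth, in units of 1e6 counts per library, was 33.39 to 34.73 on drug, 25.73 to 33.99 off drug and 25.7 to 31.79 in parental cells. The on-drug libraries differed in makeup from the others, with TMM scaling factors of 1.113 to 1.124, against 0.917 to 0.95 off drug and 0.937 to 0.972 in parental libraries. Levels of a single gene are given as CPM (counts per 1e6 counts, TMM-scaled), and levels of different genes are compared as TPM (transcripts per 1e6 transcripts), which allows for transcript length. The 2 scales differ by state: the median TPM per CPM over all genes was 0.596 on drug (13682 genes), 0.518 off drug (13684 genes) and 0.476 in parental cells (13667 genes), so small differences of on-drug cells from the others depend on the scale. The 6 epithelial markers, 4 of them keratins, summed to 2792 to 3696 TPM on drug, 4091 to 4639 off drug and 3927 to 4672 in parental cells. The 7 fibroblast markers summed to 77.8 to 98.6 TPM on drug, against 5.65 to 7.20 off drug and 7.98 to 10.3 in parental cells. Most of that sum was LUM, a matrix proteoglycan gene, at 59.2 to 80.6 TPM on drug, 1.26 to 2.66 off drug and 1.35 to 1.66 in parental cells, and COL3A1 was at 0 in both other states, as was DCN in parental cells. Of the 6 fibroblast markers tested, 4 were called higher on drug against off drug, and 6 higher on drug against parental cells. Of the 6 epithelial markers, 4 were called lower in each of these comparisons, while 1 and 2 were called higher. The shares of all genes called were 31.4% higher and 31.2% lower on drug against off drug. On drug against parental cells they were 33.4% higher and 32.9% lower. The 6 endothelial markers summed to 2.95 to 4.28 TPM on drug, 4.33 to 4.75 off drug and 1.53 to 2.38 in parental cells, and the 6 leukocyte markers to 2.09 to 2.23, 1.75 to 5.12 and 3.59 to 4.50 TPM in the same states. The part that transcripts of other cell types play in the on-drug results was not tested. In bulk RNA, a change in the number of cells expressing a gene and a change in RNA per cell cannot be told apart.

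The order of levels differed between states. On drug, JUNB led at 107.9 ± 14.3 TPM, followed by FOSL1 at 48.6 ± 7.40 and JUN at 47.2 ± 8.45, which did not differ beyond their spread. JUND at 31.6 ± 4.15, FOSL2 at 22.4 ± 2.59, FOS at 5.55 ± 0.811 and FOSB at 0.444 ± 0.0336 TPM came after them. Off drug, FOSL1 at 467 ± 29.5 TPM stood above JUNB at 89.9 ± 3.83 and JUN at 22.0 ± 1.43. JUND at 14.6 ± 1.07 and FOSL2 at 13.8 ± 2.30 TPM overlapped, and FOS (7.93 ± 1.77) and FOSB (2.27 ± 0.276) were lowest. In parental cells the order was JUNB (95.7 ± 12.8), FOSL1 (49.4 ± 2.46), JUND (26.1 ± 4.53), JUN (15.3 ± 1.45), FOSL2 (10.4 ± 1.31), FOS (7.17 ± 0.678) and FOSB (0.983 ± 0.0497), with no overlap between neighbours. FOS and FOSB were thus the lowest in all 3 states, and JUNB was the highest JUN gene in all 3. Among all genes tested, the mean TPM rank of FOSL1 was 2518 on drug, 279 off drug and 2226 in parental cells.

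Summed over the family, the 4 FOS genes had 76.9 ± 10.6 TPM on drug, 491 ± 33.5 off drug and 67.9 ± 3.38 in parental cells. The 3 JUN genes summed to 186.7 ± 26.6 TPM on drug, 126.6 ± 6.004 off drug and 137.1 ± 17.4 in parental cells. FOS transcripts therefore outnumbered JUN transcripts only off drug, with a ratio of the sums of 0.413 ± 0.0294 on drug, 3.88 ± 0.108 off drug and 0.500 ± 0.0556 in parental cells. Within the FOS family, FOSL1 held 63.0% on drug, 95.1% off drug and 72.7% in parental cells, and FOSL2 held 29.2% on drug, 2.80% off drug and 15.3% in parental cells. Within the JUN family, JUN held 25.2% on drug, 17.4% off drug and 11.3% in parental cells, while JUNB held 57.8% on drug, 71.1% off drug and 69.8% in parental cells. Taken on CPM instead, which does not allow for length, the FOS to JUN ratio was 0.475 on drug, 2.31 off drug and 0.447 in parental cells, so that the order of on-drug and parental cells turned with the scale, and FOSL1 held 9.16% of the 7 genes on drug, 59.2% off drug and 13.6% in parental cells.

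**Figure D2:**
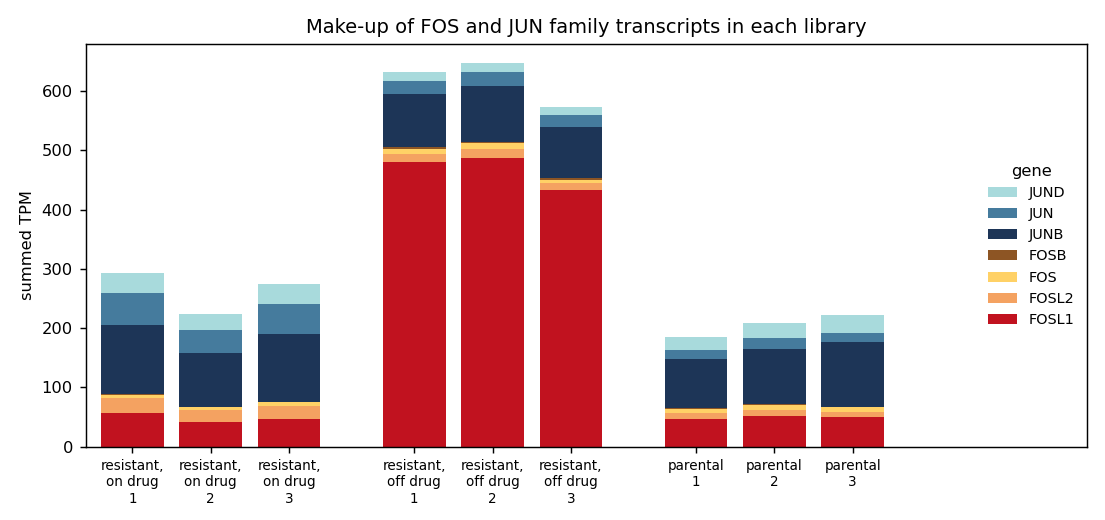
Summed TPM of the 7 genes in each library, stacked by gene (linear axis from 0), for 3 libraries each of resistant cells on drug, resistant cells off drug and parental cells. The FOSL1 block fills about the same share of all 3 off-drug bars (75.2 to 76.1%), and the JUN and FOSL2 blocks are widest on drug.

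Resistant cells off drug were set against parental cells to show what differed in the resistant line when the drug was absent. FOSL1, FOSB, JUN and FOSL2 were higher, JUND was lower, and FOS and JUNB did not pass the test. By edgeR's quasi-likelihood test at an adjusted p under 0.05, 4 of the 7 were called higher and 1 lower, against 28.4% of all 17307 genes called higher and 26.6% lower and 55% called either way. All 3 comparisons draw on the same libraries, each state serving in 2 of them, and are therefore not independent.

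FOSL1 (ENSG00000175592.9, chromosome 11, 65892049 to 65900573, minus strand, GRCh38, GENCODE 29) had 672, 648 and 663 CPM off drug, against 72.4, 77.7 and 80.9 CPM in parental libraries. Every off-drug library lay far above every parental one, and the off-drug CPM values had a coefficient of variation of 1.79%. The change was 3.10 ± 0.09 on the log2 scale (adjusted p = 1.1e-12), an 8.59-fold difference and the 230th largest rise among the genes tested. FOSB (ENSG00000125740.14, chromosome 19, 45467995 to 45475179, plus strand), a close relative of FOS that also makes a shortened form known from chronically stimulated neurons in mice, had 10.5, 9.09 and 9.02 CPM off drug, against 4.19, 4.45 and 4.54 CPM in parental libraries. The groups did not overlap, and FOSB rose by 1.12 ± 0.13 (adjusted p = 3.8e-06). FOSB overlaps ERCC1, a DNA repair gene on the other strand that was also higher (0.30 ± 0.10, adjusted p = 0.014), and since no strand setting is stated, their reads could be mixed.

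JUN (ENSG00000177606.8, chromosome 1, 58780788 to 58784327, minus strand), the founding JUN gene and the target of the JNK kinases, had 90.6, 83.7 and 86.5 CPM off drug, against 62.2, 70.2 and 64.5 CPM in parental libraries. It rose by 0.41 ± 0.09 (adjusted p = 0.0018) without overlap, as 61.9% of all genes also showed between these states. FOSL2 (ENSG00000075426.12, chromosome 2, 28392448 to 28417312, plus strand), which encodes FRA2, had 94.1, 101.6 and 89.2 CPM off drug, against 83.8, 84.0 and 72.6 CPM in parental libraries. Its rise of 0.24 ± 0.09 was small though the groups did not overlap (adjusted p = 0.026). The FOSL2 call was lost without parental replicate 3 (0.18, adjusted p = 0.088), without off-drug replicate 1 (0.25, adjusted p = 0.061) or 2 (0.18, adjusted p = 0.15). It was also lost with upper-quartile factors (0.15, adjusted p = 0.13), with library size only (0.21, adjusted p = 0.068), with the stricter filter (0.20, adjusted p = 0.055) and on log2(TPM + 1) without a filter (0.37, adjusted p = 0.11).

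JUND (ENSG00000130522.6, chromosome 19, 18279760 to 18281622, minus strand), a JUN gene known for steady expression in resting cells and for slowing growth in mouse fibroblasts, had 38.9, 37.0 and 36.4 CPM off drug, against 66.8, 79.4 and 90.4 CPM in parental libraries. It was the only member below parental cells in every off-drug library with a called fall, of -1.07 ± 0.11 (adjusted p = 4.4e-07). JUNB (ENSG00000171223.6, chromosome 19, 12791496 to 12793315, plus strand), known as an antagonist of JUN in some settings, had 211, 208 and 221 CPM off drug, against 224, 238 and 286 CPM in parental libraries. The 2 groups did not overlap but lay close together, and the difference of -0.22 ± 0.09 missed the threshold (95% interval -0.42 to -0.02, adjusted p = 0.055). It passed under several other settings, for example with adjusted p = 0.033 by DESeq2 and 0.04 with the replicate number as a block, and ranged from adjusted p = 0.01 to 0.74 over all of them. FOS (ENSG00000170345.10, chromosome 14, 75278774 to 75282230, plus strand), the founding member of the family, had 14.2, 14.7 and 11.9 CPM off drug, against 11.8, 13.6 and 13.4 CPM in parental libraries. The groups overlapped, and the difference was 0.07 ± 0.12 (95% interval -0.19 to 0.33, adjusted p = 0.65), with a sign that turned to -0.02 under upper-quartile scaling.

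**Figure D3:**
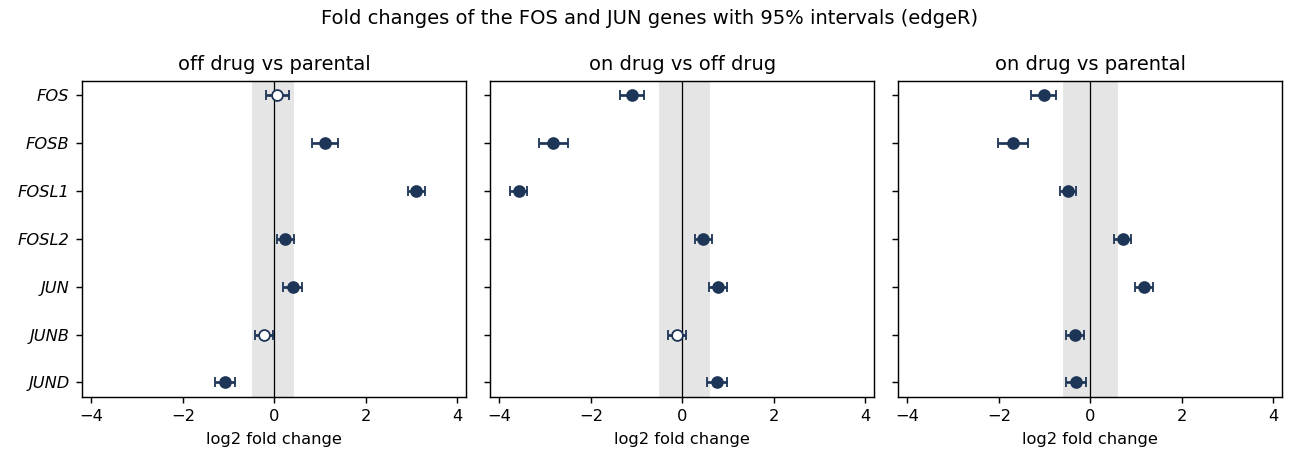
Log2 fold changes of the 7 genes from edgeR with 95% intervals, for resistant cells off drug against parental cells, on drug against off drug, and on drug against parental cells. Filled points passed an adjusted p under 0.05, open points did not, and the grey band holds the genes between the 25th and 75th percentile of all 17307 tested. FOSL1 is farthest from 0 in the first pair of panels and its point lies within the grey band in the last, while JUN lies to the right of 0 in all 3.

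Resistant cells on drug, 4 days after dosing with sotorasib, were set against the same line off drug. The line was selected on the drug and the time since its removal is not stated. Effects of dosing and of withdrawal therefore cannot be told apart here. FOSL1, FOSB and FOS fell, JUN, JUND and FOSL2 rose, and JUNB did not pass the test. Thus 3 of the 7 were called higher and 3 lower, against 31.4% of all genes called higher, 31.2% lower and 62.6% either way. The members that fell were all FOS genes, and FOSL2 was the FOS gene that did not fall.

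FOSL1 had 60.1, 51.0 and 54.3 CPM on drug, against the 648 to 672 CPM off drug given above. No on-drug library came near the off-drug ones. FOSL1 fell by 3.58 ± 0.09 on the log2 scale (adjusted p = 3.0e-14), an 11.99-fold difference and the 191st largest fall of all genes. FOSB had 1.28, 1.40 and 1.37 CPM on drug, from 49 to 53 estimated counts per library, against 9.02 to 10.5 CPM off drug. It fell by 2.82 ± 0.15 (adjusted p = 1.6e-10), next to a fall of its overlapping neighbour ERCC1 by 0.89 (adjusted p = 7.9e-07). FOS had 6.70, 5.38 and 6.99 CPM on drug, against 14.2, 14.7 and 11.9 CPM off drug. The on-drug values were all below the off-drug ones, and FOS fell by 1.09 ± 0.12 (adjusted p = 1.4e-06). On the TPM scale the FOS ranges nearly touched, at 4.61 to 6.06 TPM on drug and 6.07 to 9.61 TPM off drug, and its TPM per CPM was 0.873 on drug and 0.583 off drug. Tested on log2(TPM + 1) without a filter on low values, the fall of 0.44 was not called (adjusted p = 0.084).

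JUN had 162.5, 127.4 and 156.7 CPM on drug, against 90.6, 83.7 and 86.5 CPM off drug. Every on-drug library was higher, with replicate 2 the lowest of them, and JUN rose by 0.78 ± 0.09 (adjusted p = 2.7e-06). JUND had 59.8, 59.4 and 69.7 CPM on drug, against 38.9, 37.0 and 36.4 CPM off drug, and rose by 0.75 ± 0.11 (adjusted p = 1.4e-05). FOSL2 had 137.9, 121.4 and 132.8 CPM on drug, against 94.1, 101.6 and 89.2 CPM off drug, and rose by 0.46 ± 0.09 (adjusted p = 2.3e-04). For JUND and FOSL2 too, the groups did not overlap, as held for 67.6% of all genes. JUNB had 199, 180 and 210 CPM on drug, against 211, 208 and 221 CPM off drug. These ranges overlapped, and the difference of -0.12 ± 0.09 (95% interval -0.32 to 0.08, adjusted p = 0.28) had the opposite sign on library size alone (0.14) and on TPM (0.25).

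Resistant cells on drug were also set against untreated parental cells. Of the 7 members, 2 were called higher (JUN and FOSL2) and 5 lower, against 33.4% of all genes called higher, 32.9% lower and 66.3% either way. Groups did not overlap for 6 of the 7 members, nor for 69% of all genes. JUN differed most among the higher ones, at 127.4 to 162.5 CPM on drug and 62.2 to 70.2 CPM in parental cells (1.18 ± 0.09, adjusted p = 2.0e-08). With the other comparisons, this makes JUN lowest in parental cells and highest on drug, each step being called. FOSL2, at 121.4 to 137.9 CPM on drug and 72.6 to 84.0 CPM in parental cells, rose by 0.71 ± 0.09 (adjusted p = 2.7e-06).

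FOSB and FOS on drug lay below parental cells as well as below off-drug cells. FOSB, at 1.28 to 1.40 CPM on drug and 4.19 to 4.54 CPM in parental cells, fell by 1.70 ± 0.15 (adjusted p = 7.9e-08). FOS, at 5.38 to 6.99 CPM on drug and 11.8 to 13.6 CPM in parental cells, fell by 1.02 ± 0.12 (adjusted p = 2.5e-06), but by only 0.32 on log2(TPM + 1), which was not called (adjusted p = 0.085). FOSL1, at 51.0 to 60.1 CPM on drug and 72.4 to 80.9 CPM in parental cells, was lower by a small margin (-0.48 ± 0.08, adjusted p = 7.9e-05), yet its TPM ranges overlapped, and the difference on log2(TPM + 1) was -0.03 (adjusted p = 0.79). JUNB (-0.34 ± 0.09, adjusted p = 0.0044) and JUND (-0.32 ± 0.10, adjusted p = 0.012) were called lower on CPM, but their sign turned on log2(TPM + 1), to 0.17 for JUNB and 0.27 for JUND, neither called (adjusted p = 0.19 and 0.086). The JUND ranges overlapped, at 59.4 to 69.7 CPM on drug and 66.8 to 90.4 CPM in parental cells, and without parental replicate 3 its difference was -0.21 (adjusted p = 0.06). Only the rises of JUN and FOSL2 and the fall of FOSB against parental cells kept their call on every scale tried.

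The genes that lie next to FOSL1 moved in the same directions. CCDC85B, whose end lies 414 bases below the end of FOSL1 on the other strand, had 73.0, 65.0 and 79.4 CPM on drug, 220.2, 206.5 and 229 CPM off drug and 70.4, 78.2 and 96.1 CPM in parental cells. It was higher off drug than in parental cells (1.42 ± 0.11, adjusted p = 2.5e-08) and lower on drug than off drug (-1.59 ± 0.11, adjusted p = 3.4e-09). C11orf68, 16235 bases above FOSL1, had 36.3, 37.3 and 40.2 CPM on drug, 107.3, 103 and 115.1 CPM off drug and 38.8, 44.2 and 45.4 CPM in parental cells. It too was higher off drug than in parental cells (1.34 ± 0.09, adjusted p = 3.8e-09) and lower on drug than off drug (-1.52 ± 0.09, adjusted p = 3.8e-10). Neither differed on drug from parental cells by the test (-0.17 for both, adjusted p = 0.18 for CCDC85B and 0.088 for C11orf68). These shifts were smaller than those of FOSL1 itself. Over all 7 members, the nearest tested genes on both sides had no common direction. Of 10 neighbours of members called between off-drug and parental cells, 4 were called the same way, 2 the opposite way and 4 not at all. Between on-drug and off-drug cells these were 4, 3 and 5 of 12, and between on-drug and parental cells 3, 4 and 7 of 14. Of all genes, 55%, 62.6% and 66.3% were called either way in these comparisons. The pair next to FOSL1 was singled out after these values were seen.

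**Figure D4:**
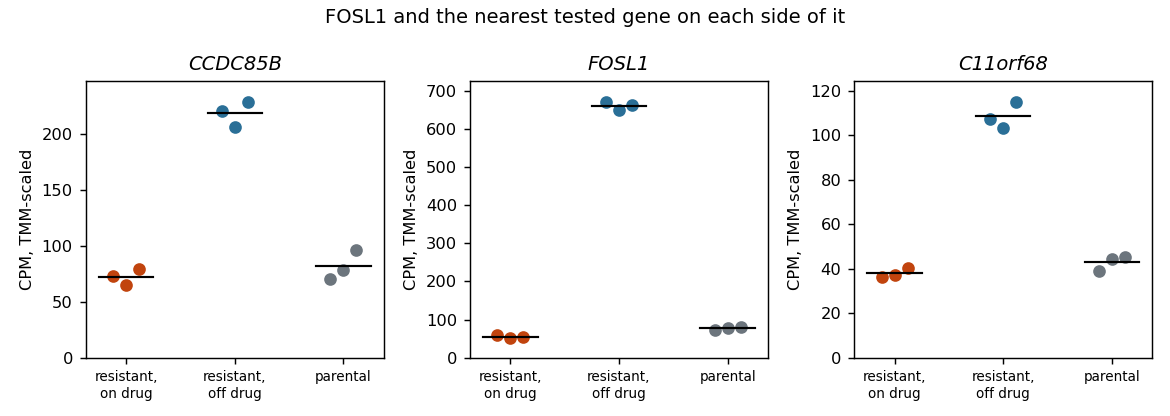
CPM (TMM-scaled, linear axes from 0) of FOSL1 and of the nearest tested gene on each side, in resistant cells on drug, resistant cells off drug and parental cells. Points are libraries and bars are means of 3 libraries. All 3 genes are highest in the off-drug libraries, FOSL1 by the widest margin.

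Promoters of 6 of the 7 members were in the RefSeq table used here (GRCh38.p14), FOSL1 being the exception. The 210 bases before the start of FOSB and JUND are shown, because these members moved in opposite directions between off-drug and parental cells. Capitals mark TGACG, the core of the cyclic AMP response element bound by ATF and CREB relatives of AP-1, on either strand, and the whole element TGACGTCA where it occurs.
FOSB: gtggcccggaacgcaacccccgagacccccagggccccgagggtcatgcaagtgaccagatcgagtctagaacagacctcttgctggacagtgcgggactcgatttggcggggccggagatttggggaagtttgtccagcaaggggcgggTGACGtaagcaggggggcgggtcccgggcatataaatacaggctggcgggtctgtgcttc
JUND: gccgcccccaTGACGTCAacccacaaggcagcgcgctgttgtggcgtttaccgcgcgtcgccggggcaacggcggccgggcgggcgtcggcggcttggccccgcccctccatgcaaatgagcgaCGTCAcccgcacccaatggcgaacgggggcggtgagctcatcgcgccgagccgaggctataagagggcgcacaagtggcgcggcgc
The FOSB stretch is chr19:45467786-45467995 on the plus strand, and the JUND stretch is chr19:18281623-18281832 on the minus strand. In FOSB the match lay at bases -60 to -56 from the start, followed by TATAAA at -30 to -25. In JUND the whole element lay at -200 to -193, with a further TGACG on the other strand at -86 to -82. All 6 promoters held TGACG on either strand within these 210 bases, against 18.96% of the 35116 promoters in the table. TGACGTCA was found in JUND alone among the 6 (1.57% of all promoters), and TGACATCA, the variant long known from the JUN promoter, in JUN alone at -67 to -60 (2.23% of all). The canonical AP-1 letters TGACTCA occurred in none of the 6 within the 210 bases, though FOSL2 held them at 5 to 11 bases after its start (3.69% of all promoters within the 210 bases and 4.95% with the first bases of the transcript included). TATAAA was present in FOS, FOSB and JUNB (9.08% of all), and the CArG box bound by SRF was in none of the 6 windows (1.01% of all). Sites lying well upstream of these windows were not searched for, so a CArG box there would be missed. A match describes letters only, and the RefSeq starts of FOS, FOSL2 and JUN lie inside the gene bounds that GENCODE 29 gives.

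Among 12 other bZIP genes whose products pair with AP-1 subunits, 11 were tested. Between off-drug and parental cells 4 rose and 3 fell (median log2 change -0.10, against 0 for all genes), between on-drug and off-drug cells 3 rose and 6 fell (median -0.48, against 0.02), and between on-drug and parental cells 2 rose and 7 fell (median -0.61, against 0.02). The counts of this list and of the lists that follow stand beside the shares of all genes called, which were 28.4% higher and 26.6% lower off drug against parental, 31.4% higher and 31.2% lower on drug against off drug, and 33.4% higher and 32.9% lower on drug against parental. JDP2, a repressive partner of JUN proteins, was highest on drug, at 28.0 to 33.3 TPM, against 15.1 to 16.7 TPM off drug and 10.96 to 13.28 TPM in parental cells, and rose in all 3 comparisons (0.34 ± 0.10, 0.65 ± 0.10 and 0.99 ± 0.10, adjusted p = 0.0094, 2.5e-05 and 2.5e-07). On CPM, ATF2, a JUN partner, fell by 0.38 ± 0.09 on drug against off drug (adjusted p = 0.0021), and its relative ATF7 fell by 0.58 ± 0.09 (adjusted p = 4.8e-05). On TPM the ATF2 ranges overlapped, at 14.1 to 18.5 TPM on drug and 17.6 to 19.3 TPM off drug. The direction of ATF7 turned on TPM, at 18.5 to 19.1 TPM on drug and 14.5 to 18.1 TPM off drug. MAFG, a small MAF protein gene, was not called in any comparison (-0.09, -0.08 and -0.17, adjusted p = 0.39, 0.46 and 0.095).

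Of 17 genes for kinases and transcription factors upstream of FOS and JUN, 7 rose and 1 fell between off-drug and parental cells (median 0.14), 6 rose and 9 fell between on-drug and off-drug cells (median -0.18), and 10 rose and 4 fell between on-drug and parental cells (median 0.23). Called either way were 8, 15 and 14 of the 17, against 55%, 62.6% and 66.3% of all genes. MAPK9, which encodes the JUN kinase JNK2, had 141.9 to 157.3 TPM on drug, against 44.5 to 49.4 TPM off drug and 40.2 to 50.8 TPM in parental cells. It rose on drug against off drug by 1.38 ± 0.07 (adjusted p = 2.2e-10) and was not called between off-drug and parental cells (-0.13 ± 0.07, adjusted p = 0.14). ELK3, a factor that works with SRF at early gene promoters, followed FOSL1 in direction, at 19.2 to 23.5 TPM on drug, 40.6 to 47.5 TPM off drug and 17.2 to 21.9 TPM in parental cells. It rose by 1.11 ± 0.08 off drug against parental (adjusted p = 2.6e-08) and fell by 1.32 ± 0.09 on drug against off drug (adjusted p = 1.8e-09). MAPK3, which encodes ERK1, changed little (-0.21, 0.27 and 0.06 in the 3 comparisons, called only on drug against off drug at adjusted p = 0.017), and RPS6KA3, an ERK-activated kinase gene, was called only on drug against parental cells (0.30 ± 0.10, adjusted p = 0.012).

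The 9 genes whose products degrade AP-1 mRNAs or proteins, or stabilise such mRNAs, were read in the same way. Between off-drug and parental cells 8 rose and 1 fell (median 0.55), on drug against off drug 2 rose and 4 fell (median -0.07), and on drug against parental cells 5 rose and 3 fell (median 0.36). Of all genes, 55%, 62.6% and 66.3% were called either way in these comparisons, with medians of 0, 0.02 and 0.02, so that 6 of 9 on drug against off drug is near the share of all genes. ZFP36L1, which binds AU-rich mRNAs and speeds their decay, had 78.1 to 99.3 TPM on drug, 198.8 to 224.8 TPM off drug and 94.2 to 117.5 TPM in parental cells, a rise of 0.84 ± 0.08 off drug against parental (adjusted p = 3.3e-07) and a fall of 1.40 ± 0.08 on drug against off drug (adjusted p = 5.2e-10). ITCH, a ubiquitin ligase that acts on JUN proteins, fell by 1.94 ± 0.09 on drug against off drug (adjusted p = 2.3e-11), to 24.8 to 30.1 TPM on drug, against 92.2 to 106.7 TPM off drug. KHSRP, an AU-rich element binding protein gene, rose in all 3 comparisons (0.55, 0.34 and 0.89), and ELAVL1, which encodes the mRNA-stabilising protein HuR, rose off drug against parental cells (0.67 ± 0.08, adjusted p = 4.3e-06) and was not called on drug against off drug (-0.07 ± 0.08, adjusted p = 0.45).

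Genes reported as AP-1 targets in the literature mostly moved in the same direction as FOSL1 off drug against parental cells and on drug against off drug. On drug against parental cells most of them fell, while FOSL1 was lower by a small margin only (-0.48 on CPM, -0.03 on log2(TPM + 1)). Of 23 listed, 20 were tested, and 1 further gene, dropped from the list after its values were seen, is in none of these counts. Off drug against parental cells 12 rose and 4 fell, with a median of 0.98 (0.95 with GJA1, which had no count in any parental library, left out), against 0 for all genes. On drug against off drug 3 rose and 15 fell, with a median of -2.20, against 0.02. On drug against parental cells 3 rose and 13 fell, with a median of -1.57, against 0.02, the same with GJA1 set at its bound of at least 5.41-fold higher (floor of 3 counts per library). Of all genes, 28.4%, 31.4% and 33.4% were called higher in these comparisons and 26.6%, 31.2% and 32.9% lower. Many of these genes are also known as targets of other factors.

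HMGA1, a chromatin protein gene, was the most abundant, at 364 to 419 TPM on drug, 3716 to 4169 TPM off drug and 1261 to 1376 TPM in parental cells. It rose by 1.48 ± 0.08 off drug against parental (adjusted p = 4.6e-10) and fell by 3.61 ± 0.09 on drug against off drug (adjusted p = 2.6e-14). VEGFA, an angiogenic growth factor gene, rose by 0.95 ± 0.08 and fell by 3.55 ± 0.09 in the same comparisons (adjusted p = 5.9e-08 and 3.0e-14). PLAU, the urokinase gene, rose by 0.59 ± 0.08 and fell by 2.29 ± 0.09 (adjusted p = 2.2e-05 and 3.4e-12), and its receptor gene PLAUR rose by 1.72 ± 0.09 and fell by 1.57 ± 0.09 (adjusted p = 5.2e-10 and 5.0e-10). CCND1, the cyclin D1 gene, rose by 1.16 ± 0.09 and fell by 0.96 ± 0.09 (adjusted p = 2.9e-08 and 1.3e-07).

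Not every listed target followed FOSL1. AREG, an EGF receptor ligand gene, was slightly lower off drug than in parental cells (-0.38 ± 0.09, adjusted p = 0.0015) and far lower on drug than off drug, at 18.7 to 20.4 TPM, against 461 to 476 TPM off drug (-4.81 ± 0.11, adjusted p = 1.5e-14). LAMB3, a laminin chain gene, was likewise slightly lower off drug than in parental cells (-0.39 ± 0.11, adjusted p = 0.0072) and fell by 2.44 ± 0.12 on drug against off drug (adjusted p = 4.5e-11). TIMP1, a metalloproteinase inhibitor gene, was not called off drug against parental (0.06 ± 0.10, adjusted p = 0.62) and fell by 1.57 ± 0.10 on drug against off drug (adjusted p = 2.0e-09). MMP13, a collagenase gene, ran opposite to FOSL1, lower off drug than in parental cells (-4.09 ± 0.21, adjusted p = 3.9e-10) and higher on drug than off drug (2.45 ± 0.21, adjusted p = 5.4e-08). F3, the tissue factor gene, rose at both steps (1.62 ± 0.08 and 0.98 ± 0.07, adjusted p = 2.2e-10 and 1.1e-08). MMP13 and F3 were picked out after their values were seen.

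**Figure D5:**
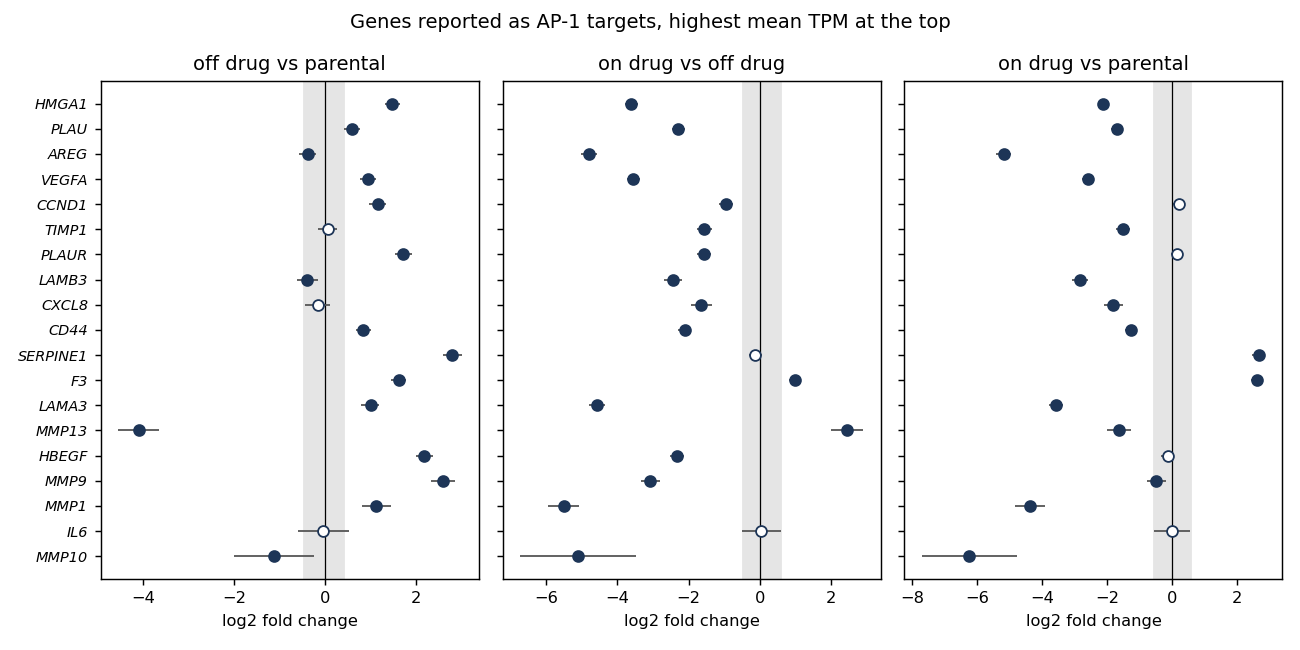
Log2 fold changes with 95% intervals for 19 genes reported as AP-1 targets, ordered by mean TPM with the highest at the top, in the 3 comparisons (the axes have different ranges). Filled points passed an adjusted p under 0.05, open points did not, the grey band runs from the 25th to the 75th percentile of all genes tested, and GJA1 is left out. Most points lie right of 0 off drug against parental cells and left of it in both on-drug panels, with MMP13 on the other side in the first pair.

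Of 15 other immediate early genes, 13 were tested. Off drug against parental cells 10 rose and 1 fell (median 0.49), on drug against off drug 0 rose and 10 fell by edgeR (median -1.31), and on drug against parental cells 4 rose and 8 fell (median -0.92). The shares of all genes called higher were 28.4%, 31.4% and 33.4% in these comparisons, and called lower 26.6%, 31.2% and 32.9%. The 0 risers on drug against off drug were also 0 by DESeq2, by limma voom and at an unadjusted p under 0.05, but 1 or 2 under upper-quartile, library-size or TPM scaling. IER3, a survival gene of the early response, had 60.1 to 71.8 TPM on drug, 408 to 449 TPM off drug and 148 to 189 TPM in parental cells. It rose by 1.26 off drug against parental (adjusted p = 1.8e-08) and fell by 2.96 on drug against off drug (adjusted p = 8.4e-13). PPP1R15A, which encodes a phosphatase subunit of the stress response, rose by 1.27 and fell by 2.19 (adjusted p = 7.2e-09 and 7.0e-12), IER2 rose by 0.65 and fell by 0.71 (adjusted p = 1.9e-05 and 5.2e-06), and KLF10, a zinc finger factor gene, rose by 0.81 and fell by 0.63 (adjusted p = 1.2e-07 and 1.2e-06). FOS, itself the model gene of this class, was not called off drug against parental cells, as given above.

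For each member, the 3 tested genes with the most similar pattern were found as the smallest root mean square difference of centred log2 CPM over the 9 libraries, among 11913 genes. The libraries fall into 3 states, so likeness mostly reflects the 3 state means. FOSL1 was nearest to ITGA5, an integrin chain gene (0.18), KRT86, a hair keratin gene (0.20), and CD22, a gene best known from B cells (0.21), and these distances were the widest of any member. FOSB was nearest to BCAR3 (0.08), LHX1 (0.12) and SKAP2 (0.12), and FOS to GOLGA2 (0.06), DEF6 (0.09) and ENO2 (0.09). FOSL2 was nearest to MEX3A, PPP4R1 and KIF21A (0.06 each), JUN to SAFB2 (0.07), DDX46 (0.08) and ZNF707 (0.09), JUNB to PLPP2 (0.04), MVD (0.04) and ADAM15 (0.05), and JUND to SPR (0.08), CMTM8 (0.10) and TMEM129 (0.10). No member was among the nearest 3 of another.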

How the data were processed

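Poly(A) RNA of 9 NCI-H358 libraries was measured, 3 per state. The authors deposited unscaled estimated counts for each gene, which hold fractions, and TPM values, adjusted for transcript length and depth. The tools named per the submitters' processing notes are Salmon 0.14.1, FastQC 0.12.1 and bcl2fastq 2.17, and the build is GRCh38.p13. No source used here gives the annotation release, the strand setting or how transcripts were summed to genes.

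Estimated counts were rounded and tested with edgeR 4.0.16 (R 4.3.3): TMM scaling, filterByExpr (minimum count 10, minimum total 15) and 1 quasi-likelihood fit over the 9 libraries with 1 mean for each state (6 residual degrees of freedom). The design had assumed plain counts. Adjusted p-values are Benjamini-Hochberg over all 17307 genes tested, called under 0.05. Errors of fold changes are SE (the log2 change over the square root of F), and errors of levels are SD. No 2 replicates agreed within sampling noise (lowest chi-square per degree of freedom 5.113). The steps were tested on simulated data for each comparison, fitted with the compared groups alone. The same spread was set for every gene, and 64 to 67 genes of 15767 to 16709 were changed at each fold size. Of changes planted at 1.5-fold, 60.6 to 75% were recovered, of those at 2-fold 86.4 to 93.8%, and of those at 4-fold 100%. False calls made up 2.9 to 7.1% of all calls in the simulated data. In the real data 55 to 66.3% of genes were called. The simulations changed far fewer genes, so they cannot show the share of false calls under such broad change. Alternatives were other scaling factors, other filters, DESeq2 1.42.0, limma 3.58.1 (voom, and log2(TPM + 1) or log2(TPM + 0.1)), leaving out each library, fitting the compared groups alone, and a replicate block.

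The members and lists were chosen with earlier results of these data known. From each list the 4 genes with the highest mean TPM are named (8 of the reported AP-1 targets, a list from which 1 gene was dropped after its values were seen and is not reported here), whatever their result, and the nearest tested gene on each side of a member was read as its neighbour. Genes most like a member were sought at an average log2 CPM of at least 1 with a prior count of 2, leaving out antisense, readthrough, pseudogene, clone-based and LINC names. Symbols matched 60089 of 60230 identifiers. Positions are from GENCODE 29, and promoters from RefSeq.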

Additional observations from a re-analysis of the deposited data

How the results depend on the processing

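Of the alternatives for members' fold changes, 400 kept direction and side of the threshold, 11 gained a call, 17 lost one and 13 turned sign. FOSL1, FOSB, JUN and JUND kept their calls off drug against parental and on drug against off drug under every setting run. The number of members called lower off drug against parental, 1 as reported, was 2, with JUNB added, under RLE factors, upper-quartile factors, library size only, no filter, the stricter filter, DESeq2, the replicate block and fits of only the groups compared, and 1 to 2 with a library left out. Members called lower on drug against parental, 5 as reported, were 3 on library size alone and 1 under each TPM setting. Sign turned for FOS off drug against parental (-0.02 with upper-quartile factors, 0 without off-drug replicate 2, and 0 to 0.16 over all libraries left out in turn), for JUNB on drug against off drug (0.01 with upper-quartile factors, 0.14 on library size, 0.25 on TPM), and on TPM for JUNB (0.17) and JUND (0.27 to 0.28) on drug against parental. Genes called lower off drug against parental, 4602 as reported, were 2529 on log2(TPM + 1), 2531 on log2(TPM + 0.1) and 2671 without a TPM filter. On drug against off drug, 5403 as reported, they were 3585 on library size alone and 2995, 2975 and 3000 on TPM, and on drug against parental, 5690 as reported, they were 2828, 2802 and 3162 on TPM. Library size alone moved the median log2 change of all genes to 0.272 on drug against off drug and 0.24 on drug against parental, and raised the share of calls that were higher to 68.5% and 64.3%, against 50.1% and 50.4% as reported. On log2(TPM + 1) the medians were 0.13, 0.157 and 0.273, and the shares 64.6, 64 and 69.7%, in the order off drug against parental, on drug against off drug and on drug against parental. The cause of these shifts was not tested. Of list counts, 1115 stayed within 1.5 times and 145 did not. By Pearson correlation, 0 of the 3 genes nearest to FOSL1 were among its top 3. Replicate numbers are shared between states, but same-numbered libraries correlated in their deviations at only -0.034 to 0.135 over 9 pairs. No shared effect of the number was thus visible, though this cannot show whether same-numbered libraries were handled together. The block changed no member's call but that of JUNB off drug against parental (-0.22, adjusted p = 0.04). FOSB and FOS rest on few counts (49 to 370 per library), which limits their precision. Intervals of fold changes include the spread between libraries, and floors cover counting error only.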

Other observations

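Of 10 heat shock genes, which share the stress induction of FOS and JUN in many settings, 4 rose and 2 fell off drug against parental cells (median log2 change 0.14), 5 rose and 2 fell on drug against off drug (median 0.24), and 6 rose and 2 fell on drug against parental cells (median 0.32). These 6, 7 and 8 called genes of 10 lie near the shares of all genes called either way, at 55%, 62.6% and 66.3%. HSPA8, a constitutive chaperone gene, was highest on drug, at 932 to 1113 TPM, against 630.0 to 686 TPM off drug and 408 to 453 TPM in parental cells, and rose in all 3 comparisons (0.53, 0.41 and 0.94, adjusted p = 5.2e-05, 4.5e-04 and 6.1e-08 by edgeR). HSPB1, a small chaperone gene, fell off drug against parental cells (-0.59, adjusted p = 1.6e-04) and rose on drug against off drug (0.89, adjusted p = 1.7e-06), the same directions as JUND. HSP90AA1 rose off drug against parental cells (0.72, adjusted p = 5.1e-06) and was not called on drug against off drug (0.07, adjusted p = 0.54). HSPE1 fell off drug against parental cells (-0.42, adjusted p = 0.0011) and rose on drug against off drug (0.47, adjusted p = 3.7e-04).

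FOSL2-AS1, the antisense RNA that overlaps FOSL2, was not called in any comparison (-0.32 off drug against parental, adjusted p = 0.47, and -0.26 on drug against off drug, adjusted p = 0.54). HOOK2, which overlaps JUNB, fell off drug against parental cells (-0.55, adjusted p = 1.9e-04) and was not called on drug against off drug (0.22, adjusted p = 0.067). Without the strand setting, reads from any transcribed bases that such a pair shares could be mixed. How many reads this concerns was not tested.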
